A study of Mus musculus with 12 samples.

Results

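The nuclear receptor superfamily was followed in skeletal muscle of mice that overexpress Nur77, the orphan receptor encoded by Nr4a1. The group was chosen by name: 42 receptor genes, including the 3 NR4A receptors, of the 19057 genes that the array annotation names, with every probe whose symbol is on the list. Of these, 39 receptors had 77 probes, and Nr1h2, Nr2e3 and Nr2f1 had none. The transgenic (TG) mice are labelled as overexpressing Nur77 in skeletal muscle, and the other mice are labelled wild type (WT). Both genotypes were fasted overnight, and the sample titles abbreviate the muscle as Gastr. The promoter of the transgene, the number of founder lines, the strain, the sex and the age are not stated in the sources used here. From each genotype 6 mice, 12 in all, were pooled by pairs, so 3 TG pools and 3 WT pools were read, each with 1 array per chip on 2 chips, per the series design. Titles mark the repeats only as rep1 and rep2, and these were taken as chip 1 and chip 2. Pools served as replicates (n = 3 per genotype), and each value below is the mean of the 2 arrays of a pool.

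Nuclear receptors are transcription factors that bind short DNA elements built around the core AGGTCA or, for the steroid receptors, around other elements, and most change their activity when a small lipophilic ligand binds. Many of them, among them the PPARs, the thyroid hormone receptors, the retinoic acid receptors and the LXRs, work as heterodimers with an RXR. The NR4A receptors have no established endogenous ligand and can bind the element AAAGGTCA, called the NBRE, as monomers. In skeletal muscle PPARD and the estrogen-related receptors are known for their control of genes of fatty acid oxidation and mitochondria, thyroid hormone receptors for fibre type and calcium handling, and NR4A receptors for genes of glucose use.

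The chips carried 45281 probes, of which between 17607 and 19118 were detected per array at a detection p below 0.05, and a probe was tested if either genotype had it detected on all of its 6 arrays, which left 15708. All 8 skeletal muscle markers were among them and 0 of 4 liver markers. A summed macrophage marker signal of 1276, 1392 and 5940 in pools TG1, TG2 and TG3, against 2614, 844 and 825 in pools WT1, WT2 and WT3, set TG3 and WT1 above the other pools, and 0 of the 5 tested macrophage markers passed the test. Of 6 tested endothelial markers 2 were higher, Emcn by 0.30 ± 0.07 and Pecam1 by 0.35 ± 0.11 on the log2 scale (SE, limma, adjusted p = 0.0183 and 0.0450), with a median of 0.27 for the 6. Of 4 tested smooth muscle markers Smtn was higher, by 0.37 ± 0.11 (SE, limma, adjusted p = 0.0422). Of 6 tested fibroblast markers 0 passed, with a median of 0.34. Their summed signal was 22169, 23030 and 30285 in pools TG1, TG2 and TG3, and 22108 to 24046 in WT pools. Emcn passed under 12, Pecam1 under 6 and Smtn under 7 of the 20 other settings described in the closing section. Over all 9131 genes, each read like the markers by its brightest tested probe, 28.0% passed and 12.1% were higher. In bulk tissue, a change in the number of cells of a type and a change in RNA per cell cannot be told apart.

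To show the DNA behind the receptors named below, sequences were read from the RefSeq promoter table of build GRCm38.p6, each written 5′ to 3′ on the strand of its gene. Those of Esr2 and Nr6a1, the receptors with the largest positive differences, are the 250 bases before a start site. Nr6a1 has 2 promoters in the table, and the printed one is the one that holds the core AGGTCA; the other, at chr2:38926462-38926711, holds none in its 250 bases and is not printed. Those of Rxra and Rxrg are 60-base windows around the only NBREs found among the receptor promoters, and they were chosen after the search. Capitals mark AAAGGTCA in Rxra and Rxrg and, in Nr6a1, TGACCT, which is the core AGGTCA on the opposite strand.
Esr2, chr12:76177260-76177509, minus strand: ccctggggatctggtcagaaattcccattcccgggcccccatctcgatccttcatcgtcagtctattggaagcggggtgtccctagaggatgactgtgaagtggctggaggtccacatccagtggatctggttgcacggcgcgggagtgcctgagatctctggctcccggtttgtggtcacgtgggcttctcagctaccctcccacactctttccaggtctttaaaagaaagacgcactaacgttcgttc
Nr6a1, chr2:38784516-38784765, minus strand: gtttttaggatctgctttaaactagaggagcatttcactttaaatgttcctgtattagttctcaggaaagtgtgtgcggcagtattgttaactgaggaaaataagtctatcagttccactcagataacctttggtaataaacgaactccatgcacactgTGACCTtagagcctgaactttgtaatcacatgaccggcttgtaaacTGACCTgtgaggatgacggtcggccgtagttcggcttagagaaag
Rxra, chr2:27709216-27709275, plus strand: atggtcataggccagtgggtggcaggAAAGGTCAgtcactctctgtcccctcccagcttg
Rxrg, chr1:167618149-167618208, plus strand: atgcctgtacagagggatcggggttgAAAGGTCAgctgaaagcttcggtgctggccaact

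Promoters from 250 bases before to 50 bases after the start were searched on both strands for the NBRE and for the core AGGTCA, which the NBRE contains. The NBRE was found in 495 of 32851 promoters of all genes, or 1.51%, and in 2 of 59 promoters of 38 listed receptors, or 3.39%. In the 10 promoters of the 5 receptors with a probe past the test it was found 0 times. Rxra held it with its first base 50 bases before the start and Rxrg with its first base 90 bases before. The core AGGTCA was in 16.3% of all promoters, in 10 of the 59 receptor promoters (16.9%) and in 3 of the 10, which were 1 promoter of Nr6a1 and 2 of Pparg. A match is a run of letters and was not tested as a binding site.

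Which receptors were detected in muscle at all was counted first. In the best probe of each gene, 17 receptors were detected on all 12 arrays, 1 on all 6 TG arrays and 0 of 6 WT arrays, 14 on some arrays only and 7 on no array. The 17 were all 3 RXRs (Rxra, Rxrb and Rxrg), the PPARs Ppard and Pparg, the thyroid hormone receptor Thra, the retinoic acid receptors Rarb and Rarg, the oxysterol receptor Nr1h3 (LXR alpha) and all 3 estrogen-related receptors (Esrra, Esrrb and Esrrg). They also held the estrogen receptor Esr1, the testicular receptor Nr2c1, the COUP-TF family members Nr2f2 and Nr2f6, and the germ cell nuclear factor Nr6a1. The receptor detected on all 6 TG arrays and 0 WT arrays was Esr2, estrogen receptor beta. At a detection p below 0.01, 15 of the 17 stayed detected on all 12 arrays, and Thra (10 arrays) and Rarg (11 arrays) did not. On each chip alone 17 receptors were detected on all 6 arrays.

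**Figure D1:**
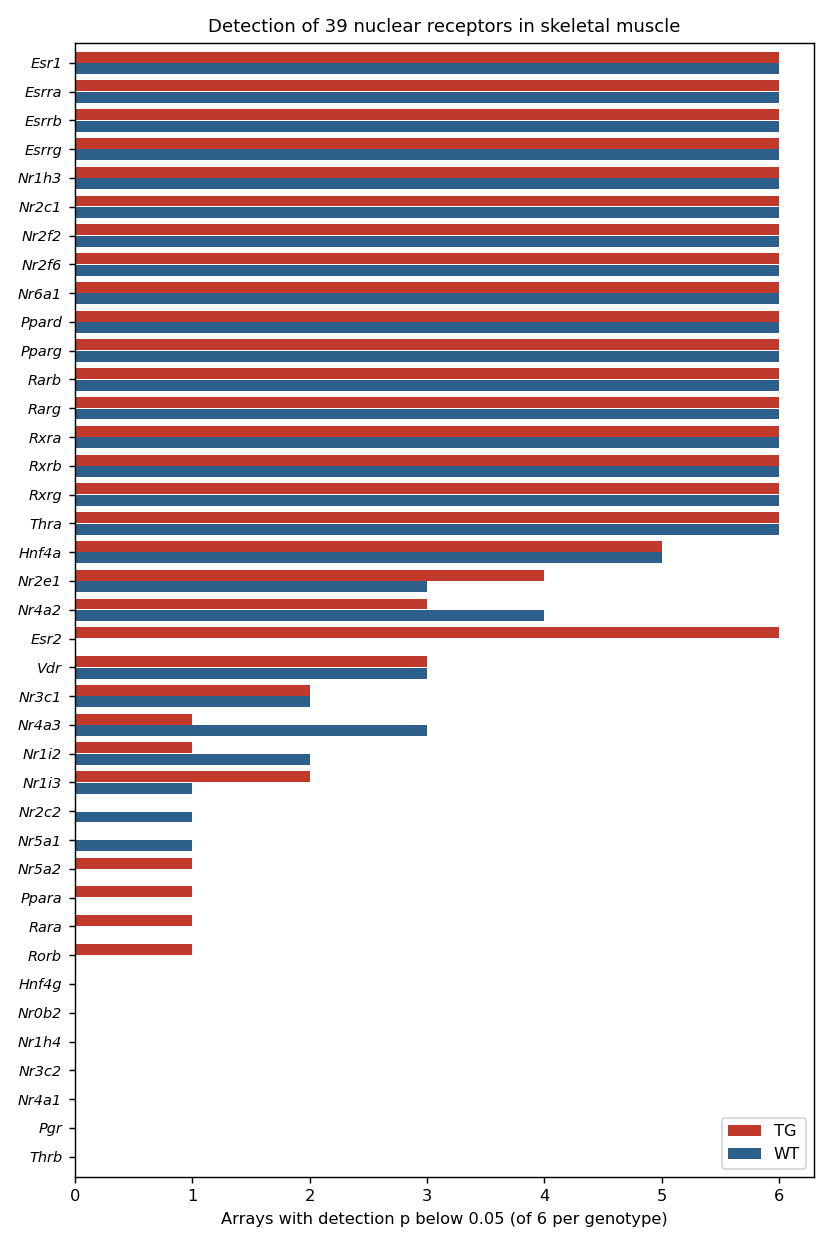
Number of arrays, of 6 TG and 6 WT, on which each listed receptor had a detection p below 0.05, taken for each genotype from the probe with the most detections. For 17 receptors the count is 6 in both genotypes, Esr2 stands at 6 TG arrays and 0 WT arrays, and Nr4a1 is among the 7 at 0.

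Detection on no array was recorded for Nr4a1, the thyroid hormone receptor Thrb, the bile acid receptor Nr1h4, the mineralocorticoid receptor Nr3c2, the progesterone receptor Pgr, Hnf4g and the corepressor-like Nr0b2. A probe detected on no array does not show that its gene is not expressed. Ppard, Pparg, Esrrg, Esr1 and Nr2f2, each with a probe detected on all 12 arrays, also had probes detected on no array. Nr4a1, Thrb, Nr1h4, Hnf4g and Nr0b2 had only 1 probe each. Over the receptors as a whole 25 probes were detected on no array, with signals between -16.2 and 15.3 on a scale on which background is already subtracted. A further 27 probes were seen on some arrays but were not tested, with signals between -15.2 and 36.2. The lowest signal that counted as detected on an array was 13.7 to 16.6, so for these probes a difference of a few units was not measurable. Of all receptor probes 32.5% were tested, against 38.8% of all probes with 1 gene symbol.

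For the NR4A receptors no probe reached the test. Nr4a1 had signals of -5.65, -4.0 and -0.3 in the TG pools and -5.5, -0.8 and -2.0 in the WT pools, and its probe was detected on 0 of 12 arrays (exact permutation test, two-sided, p = 0.7). The probe therefore gave no check of the genotype labels, on which each direction below rests. Whether its sequence lies in the transgene is not stated in the sources used here. Nr4a2 (Nurr1), an NR4A receptor best known for dopamine neurons, had signals of 12.4, 18 and 17.5 in TG pools and 19.5, 6.05 and 18.65 in WT pools, with detection on 3 TG and 4 WT arrays (exact p = 0.9). Nr4a3 (Nor1), which exercise is known to induce in muscle, had 0.45, 5.45 and 13.65 in TG pools and 9.5, 11.3 and 9.15 in WT pools on its probe with 1 TG and 3 WT detections (exact p = 0.5). Its other 2 probes were detected on no array. The pools of the genotypes overlapped for all 3 NR4A receptors, and with 3 pools against 3 an exact p cannot go below 0.1.

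Of the other receptors detected on some arrays, those seen at least once in each genotype lay around the limit of detection. Hnf4a, a receptor of liver and gut, was detected on 5 TG and 5 WT arrays, with signals of 28.1, 15.85 and 20.95 in TG pools and 18.35, 20.9 and 17.6 in WT pools. Nr2e1, known from neural stem cells, had 13.2, 20.4 and 10.55 in TG pools and 26.45, 21.2 and 4.25 in WT pools. Vdr, the vitamin D receptor, had 20.25, 14.15 and 14.1 in TG pools and 15.2, 14.4 and 13.7 in WT pools, with 3 detections in each genotype. The groups overlapped in each of these. Nr3c1, the glucocorticoid receptor, had 7.75, 16.3 and 9.2 in TG pools and 9.65, -0.1 and 15.5 in WT pools, with 2 detections in each. Nr1i2, the pregnane X receptor, had 4.9, 10.4 and 2.7 in TG pools and 11.75, 7.45 and 12.05 in WT pools. Nr1i3, the constitutive androstane receptor, had 11.4, 9.65 and 17.7 in TG pools and 3.6, 8.1 and 14 in WT pools on the probe detected once in each genotype. These too overlapped. Nr2c2 and Nr5a1 were detected on 1 WT array and Nr5a2, Ppara, Rara and Rorb on 1 TG array in their best probe, so a level could not be given for PPAR alpha or for RAR alpha here.

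The comparison of TG with WT pools was made with limma on normalised log2 values, with Benjamini-Hochberg adjustment over all 15708 probes. Of the 25 tested receptor probes, 6 (24%) passed an adjusted p of 0.05, against 25.8% of all tested probes. Of these, 4 were higher (11.3% of all tested probes were) and 2 lower (14.6% of all). The higher ones belong to Esr2 (2 probes), Nr6a1 and Pparg, and the lower ones to Esrrb and Rxrb. The 2 Esr2 probes, detected on 6 TG and 0 WT arrays, entered the test only through their TG arrays, so higher TG values were built into that entry. Rarb ILMN_2617194, detected on 6 TG and 5 WT arrays, also entered only through its TG arrays and did not pass. Among the 22 receptor probes detected on all 12 arrays, 4 passed, 2 in each direction, against 26.7% of all probes detected on all 12 arrays. For 9 of the 25 probes (36%) the 3 TG pools did not overlap the 3 WT pools, against 45.2% of all tested probes. The median difference of the 25 probes was -0.03 on the log2 scale and that of all tested probes -0.02, with 12 positive and 13 negative differences among the receptors. With cyclic loess in place of quantile normalisation both medians turned to 0.01.

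**Figure D2:**
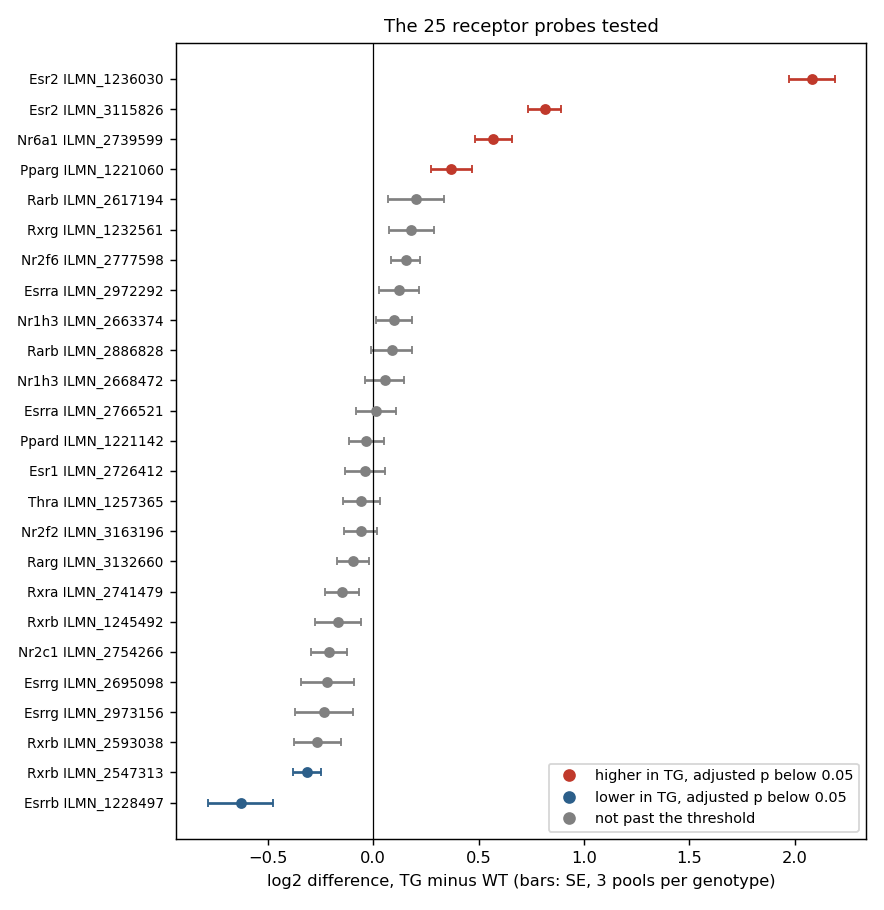
Difference TG minus WT on the normalised log2 scale for each of the 25 tested receptor probes, with its SE from limma (n = 3 pools per genotype). The 6 probes with an adjusted p below 0.05 are marked; Esr2 lies at 2.08 and 0.81, and the 19 other probes lie between -0.27 and 0.20.

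Esr2 encodes estrogen receptor beta, a ligand-activated receptor of 17-beta-estradiol. Its probe ILMN_1236030 had signals of 247.5, 186.6 and 191.4 in the TG pools and -2.15, -1.05 and 0.15 in the WT pools. Every TG pool was far above every WT pool, and the probe was detected on all 6 TG arrays and 0 of 6 WT arrays. The means were 208.5 ± 33.9 in TG pools and -1.02 ± 1.15 in WT pools (SD, n = 3 each). On the compressed normalised scale the difference was 2.08 ± 0.11 (SE, limma, adjusted p = 2.42e-05), with 2.11 on chip 1 and 2.05 on chip 2. Because the WT pools lay below detection, the fold is a bound. It was at least 3.40-fold higher in TG pools, taken against the lowest signal detected on each WT array or the probe's own value if that was higher. Without the added background correction the bound was at least 13.9-fold and with neqc at least 7.19-fold.

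A further Esr2 probe, ILMN_3115826, had signals of 50, 52.15 and 57.95 in TG pools and -3.25, 7.55 and 0.3 in WT pools. It was detected on all 6 TG arrays and 0 of 6 WT arrays, and the groups did not overlap. Its difference was 0.81 ± 0.08 (SE, limma, adjusted p = 0.000437), or at least 1.46-fold higher in TG pools, and the bound was 3.47-fold without the added background correction. The remaining probe, ILMN_3041053, was detected on no array in either genotype. The pattern of 6 TG and 0 WT detections was held by 39 of the 15708 tested probes (0.248%). An increase of at least 2-fold that passed the test was held by 223 tested probes (1.42%), among them Esr2 ILMN_1236030.

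**Figure D3:**
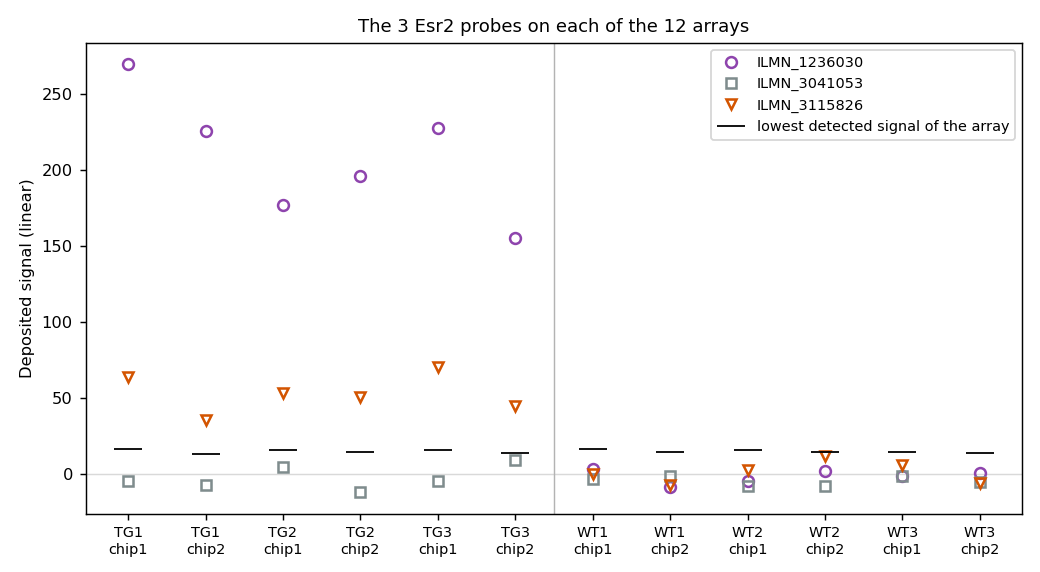
Signal of the 3 Esr2 probes on each of the 12 arrays, with TG arrays left of WT arrays and a black line at the lowest detected signal of each array. On ILMN_1236030 the TG arrays lie between 155.2 and 269.6 and the WT arrays between -8.0 and 3.7.

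Esr1, which encodes estrogen receptor alpha, was detected on all 12 arrays and had 153.35, 122.1 and 148.15 in TG pools and 141.9, 163.95 and 149.45 in WT pools. The groups overlapped and the difference was -0.04 ± 0.09 (SE, limma, adjusted p = 0.788).

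Nr6a1, the germ cell nuclear factor, is an orphan receptor known as a repressor in germ cells and early embryos. Its signals were 159.2, 162.35 and 152.95 in TG pools and 83.7, 78.5 and 98.05 in WT pools, so every TG pool was above every WT pool. The means were 158 ± 4.78 in TG pools and 86.8 ± 10.1 in WT pools (SD, n = 3 each). The difference was 0.57 ± 0.09 on the log2 scale, or 1.49-fold (SE, limma, adjusted p = 0.00314). On chip 2 alone it was 0.48 and missed the threshold (adjusted p = 0.0535).

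Pparg is the receptor best known for adipocyte differentiation. On ILMN_1221060 its signals were 185.25, 157.65 and 150.25 in TG pools and 115.55, 115.3 and 114.3 in WT pools. The groups did not overlap, and the means were 164 ± 18.4 in TG pools and 115 ± 0.66 in WT pools (SD, n = 3 each). The difference was 0.37 ± 0.10, or 1.29-fold (SE, limma, adjusted p = 0.0281), and it passed under 12 of 20 other settings. It did not pass with the authors' deposited table (0.52, adjusted p = 0.0586), on chip 2 alone (0.33, adjusted p = 0.116), with the pool number as a replicate block (adjusted p = 0.0545), or without TG1, TG2, WT1, WT2 or WT3. Its other 2 probes were detected on no array.

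Adipocyte markers stood beside this as follows. Of 10 on the list 9 had a probe and 4 were tested, with a median difference of 0.22. Their summed signal was 7121 to 10414 in TG pools and 13811 to 17244 in WT pools, most of it from Plin4. Without Plin4 the sum was 498.1, 1055 and 817 in TG pools and 604.2, 490.4 and 633.1 in WT pools, which overlapped. The lipid droplet protein gene Plin4 was lower, with a difference of -0.85 ± 0.15 (SE, limma, adjusted p = 0.00688), while Adipoq, the gene of adiponectin, and Cidec, of a lipid droplet protein, both had a difference of 0.42 and did not pass, nor did Lipe, with 0.03. Lep, Retn, Plin1, Fabp4 and Cebpa were not tested. The part of adipocytes, or of the endothelial cells whose markers are given above, in the Pparg difference was not tested.

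Of the other PPARs, Ppard had signals of 1153.65, 1156.8 and 1090.8 in TG pools and 1184.75, 1314.0 and 1295.4 in WT pools. Its difference was -0.03 ± 0.08 (SE, limma, adjusted p = 0.798). Every TG signal was below every WT signal, but the normalised values overlapped.

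Esrrb, an estrogen-related receptor known from embryonic stem cells, was lower. Its signals were 165.6, 175.3 and 112.3 in TG pools and 268.05, 296.8 and 289.9 in WT pools, and every TG pool was below every WT pool. The means were 151 ± 33.9 in TG pools and 285 ± 15.0 in WT pools (SD, n = 3 each). The difference was -0.63 ± 0.16, or 0.646-fold (SE, limma, adjusted p = 0.0225). It was not past the threshold on chip 2 alone (-0.51, adjusted p = 0.234), without background correction (-0.85, adjusted p = 0.0529), without WT2 (-0.59, adjusted p = 0.0861) or without WT3 (-0.59, adjusted p = 0.0770). On ILMN_2555396, seen on 0 TG and 3 WT arrays and so not tested, the signals were 7.45, 3.8 and 7.65 in TG pools and 20.7, 12.8 and 13.4 in WT pools.

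Esrra and Esrrg, its relatives with known roles in mitochondrial gene expression, did not pass. Esrrg had 102.45, 102.8 and 66.35 in TG pools and 130.9, 109.75 and 115.8 in WT pools on ILMN_2695098, without overlap and with a difference of -0.22 ± 0.13 (SE, limma, adjusted p = 0.244). Its ILMN_2973156 gave -0.23 ± 0.14 (adjusted p = 0.248, limma). TG3 held the lowest value of both probes and of Esrrb. Esrra had differences of 0.01 ± 0.09 on ILMN_2766521 and 0.12 ± 0.10 on ILMN_2972292 (SE, limma, adjusted p = 0.928 and 0.378). The ILMN_2972292 difference passed once TG3 was left out (0.22, adjusted p = 0.0481).

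Rxrb, a partner in RXR heterodimers, was lower on 1 of 3 tested probes. That probe, ILMN_2547313, is annotated to a different transcript record from the other tested probes. On ILMN_2547313 the signals were 47.5, 44.85 and 54.3 in TG pools and 77.9, 74.7 and 81.6 in WT pools, without overlap. The difference was -0.31 ± 0.07, or 0.804-fold (SE, limma, adjusted p = 0.0136). It missed the threshold on chip 2 alone (-0.14, adjusted p = 0.452), without TG2 (-0.30, adjusted p = 0.0506) and without WT3 (-0.28, adjusted p = 0.0518). On ILMN_2593038 the signals were 1275.65, 1403.05 and 1090.75 in TG pools and 1785.95, 1532.05 and 1652.05 in WT pools. That difference was -0.27 ± 0.11 (SE, limma, adjusted p = 0.115), and it passed when arrays were scaled to their 75th percentile instead (-0.38, adjusted p = 0.0436). The probe ILMN_1245492 gave -0.17 ± 0.11 (SE, limma, adjusted p = 0.293), so all 3 differences were negative and 1 passed. For Rxra the signals were 50.6, 65.05 and 60.5 in TG pools and 78.6, 78.95 and 61.85 in WT pools, with a difference of -0.15 ± 0.08 (SE, limma, adjusted p = 0.203). For Rxrg, the RXR known from muscle, they were 717.15, 766.2 and 761.65 in TG pools and 623.95, 720.3 and 802.3 in WT pools, with a difference of 0.18 ± 0.11 (SE, limma, adjusted p = 0.247).

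**Figure D4:**
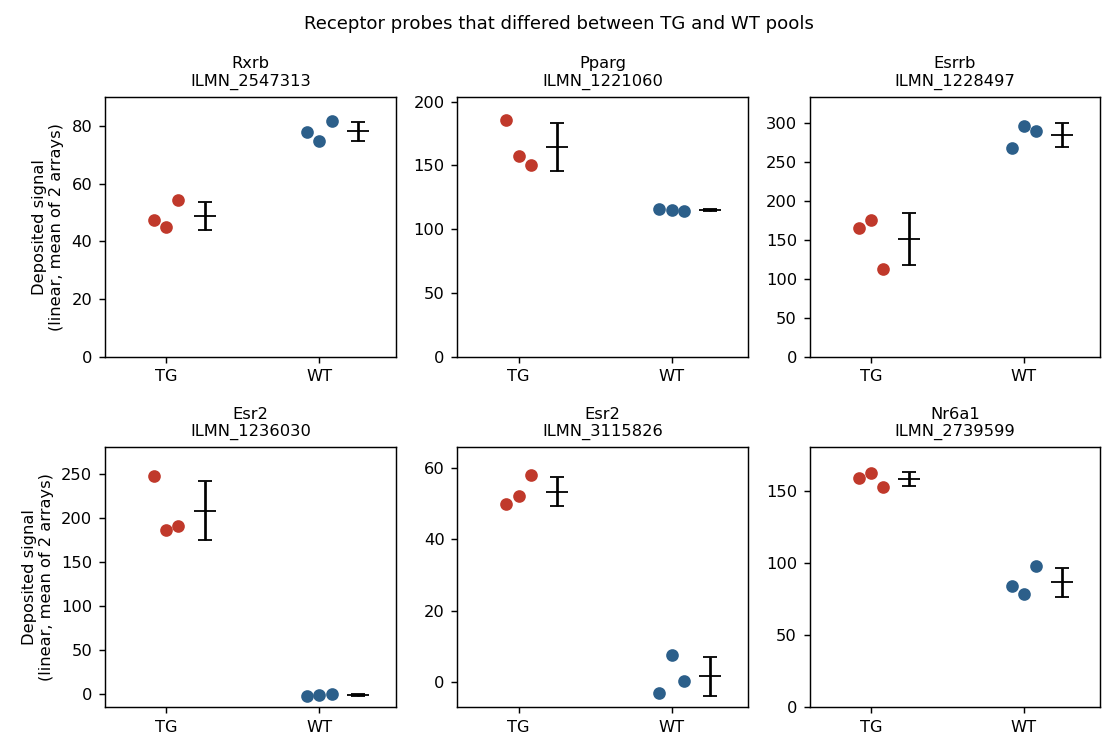
Signal of the 6 receptor probes with an adjusted p below 0.05 by pool, TG left of WT, with the mean and SD as a bar beside the 3 points (n = 3 pools). In each panel the 3 TG pools lie on 1 side of the 3 WT pools; Esr2, Nr6a1 and Pparg are higher in TG pools and Esrrb and Rxrb lower.

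The 19 tested probes that did not pass had differences between -0.27 and 0.20, with SEs of 0.07 to 0.14 and a smallest adjusted p of 0.112. A p that misses the threshold does not show equal levels. Nr2c1, a repressor, had 90.3, 71.6 and 75.9 in TG pools and 104.45, 110.15 and 93.55 in WT pools, without overlap, and gave that smallest p (-0.21 ± 0.09, SE, limma, adjusted p = 0.112). Nr2f6, a COUP-TF family member, had 605.35, 556.55 and 649.6 in TG pools and 607.45, 563.8 and 576.0 in WT pools. Its signals overlapped and its normalised values did not, with a difference of 0.15 ± 0.07 (SE, limma, adjusted p = 0.147).

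Among receptors of hormone and lipid ligands, Thra had 30.55, 31.2 and 22.9 in TG pools and 26.9, 30.2 and 39.35 in WT pools, with a difference of -0.06 ± 0.09 (SE, limma, adjusted p = 0.656). Nr1h3 had 560.8, 620.85 and 577.3 in TG pools and 557.05, 620.1 and 599.95 in WT pools on ILMN_2663374, and 2 tested probes gave 0.05 and 0.10 (limma, adjusted p = 0.688 and 0.411). Rarb, a retinoic acid receptor that is itself a retinoid-induced gene, gave 0.20 ± 0.13 on ILMN_2617194 and 0.09 ± 0.10 on ILMN_2886828 (SE, limma, adjusted p = 0.291 and 0.529). Of these, ILMN_2617194 was detected on 6 TG and 5 WT arrays and so was tested only through its TG arrays.

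The probes of Rarg, a further retinoic acid receptor, did not all point one way. ILMN_3132660, the tested one, had 37.3, 25.05 and 37.3 in TG pools and 38.65, 38.65 and 39.95 in WT pools, with -0.09 ± 0.08 (SE, limma, adjusted p = 0.393). ILMN_2618068 was seen on 3 TG and 0 WT arrays, with 13.35, 24.6 and 14.65 in TG pools and 10.45, 7.65 and 12.25 in WT pools. ILMN_3055801 was seen on 0 TG and 5 WT arrays, with 11.45, 12.15 and 8.6 in TG pools and 18.2, 16.7 and 16.6 in WT pools. Both untested probes sat near the limit of detection, did not overlap and pointed in opposite directions (exact permutation p = 0.1 each, the smallest possible). Of all tested probes 45.2% did not overlap either. In the limma fit without a detection filter neither probe passed (adjusted p = 0.391 and 0.337). Nr2f2 (COUP-TFII) gave -0.06 ± 0.08 (SE, limma, adjusted p = 0.605).

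The partners and targets of these receptors were read from lists, each gene by its brightest tested probe. By that reading 28.0% of 9131 genes passed, 12.1% higher and 15.9% lower. Of the 6 other nuclear receptors looked at, 3 were tested, 0 were higher and 2 lower. Rora, the clock-linked ROR alpha, had 1444.8, 1408.2 and 1288.9 in TG pools and 2189.25, 1830.25 and 1783.8 in WT pools, with a difference of -0.36 ± 0.09 (SE, limma, adjusted p = 0.0275). Nr1d1 (Rev-erb alpha), a clock repressor, had 506.05, 517.85 and 397.15 in TG pools and 774.2, 648.0 and 886.3 in WT pools, with -0.53 ± 0.15 (SE, limma, adjusted p = 0.0333). The TG pools of both lay below the WT pools without overlap, and Nr1d2, with -0.04, did not pass. Rora passed under 13 and Nr1d1 under 14 of 20 other settings.

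Coregulators, through which the receptors act, moved in both directions: of 16, 9 were tested, 2 were higher, 3 lower and 4 did not pass. Tbl1xr1, a subunit of the NCoR corepressor complex, had 259.3, 235.7 and 234.45 in TG pools and 491.0, 396.5 and 389.85 in WT pools, and its difference was -0.58 ± 0.09 (SE, limma, adjusted p = 0.00401), with 1 of 2 probes passing. Pprc1, a relative of the PGC-1 coactivators, had 181.85, 207.15 and 218.95 in TG pools and 369.15, 277.05 and 332.8 in WT pools, with -0.46 ± 0.09 (SE, limma, adjusted p = 0.00806). Ppargc1b, the coactivator PGC-1 beta, which binds the estrogen-related receptors, was higher, with 796.55, 702.8 and 1084.4 in TG pools and 543.15, 488.45 and 623.55 in WT pools and 0.71 ± 0.14 (SE, limma, adjusted p = 0.0103). Tbl1xr1 and Pprc1 passed under all 20 other settings and Ppargc1b under 19. The median of the 9 was -0.19, against -0.02 over all genes tested.

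Among 13 thyroid hormone targets, 9 were tested, 3 were higher and 1 was lower, with a median of -0.05. Hr, the hairless corepressor that binds thyroid hormone receptors, had 5120.55, 5994.7 and 4684.9 in TG pools and 2153.0, 2301.4 and 2439.6 in WT pools, a difference of 1.23 ± 0.11 that was seen on 2 of 2 probes (SE, limma, adjusted p = 0.000292). Klf9, which thyroid hormone and glucocorticoids induce, had 14553.1, 13703.1 and 10299.95 in TG pools and 18523.75, 19350.75 and 18851.3 in WT pools, with -0.61 ± 0.12 (SE, limma, adjusted p = 0.0103). The glucose transporter gene Slc2a4 was higher by 0.37 ± 0.09 (SE, limma, adjusted p = 0.0211). Hr passed under all 20 other settings, Klf9 under 19 and Slc2a4 under 11. Of 7 tested slow fibre markers 2 were higher, Tnni1 by 0.93 ± 0.15 and Tpm3 by 0.45 ± 0.12 (SE, limma, adjusted p = 0.00455 and 0.0293). Tnni1 passed under all 20 other settings and Tpm3 under 13. The median of the 7 was 0.42, and only Myl3 had a negative difference, of -0.52, which did not pass. Their summed signal was 73921 to 96643 in TG pools and 66750 to 83105 in WT pools. Of the 8 skeletal muscle markers 1 was lower, 1 higher and 6 did not pass. Myh4 was lower, with -0.22 ± 0.06, and Pvalb higher, with 0.24 ± 0.07 (SE, limma, adjusted p = 0.0359 and 0.0429). Each of these 2 passed under 6 of the 20 other settings. The part of slow fibres in the Hr, Klf9 and Slc2a4 differences was not tested.

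Retinoid genes were few: of 15, 5 were tested, 1 was higher and 1 lower. Tgm2, a transglutaminase that retinoic acid induces, had 8040.4, 9494.5 and 10247.9 in TG pools and 5234.95, 4741.3 and 4259.4 in WT pools, with 1.00 ± 0.11 (SE, limma, adjusted p = 0.000844). Aldh1a1, an enzyme that makes retinoic acid, had 539.95, 436.85 and 475.25 in TG pools and 1002.8, 965.3 and 847.8 in WT pools, with -0.76 ± 0.10 (SE, limma, adjusted p = 0.00143). Both passed under all 20 other settings, those without TG3 or WT1 included. The part of endothelial, smooth muscle and macrophage RNA, whose marker values are given above, was not tested. The other 3 tested genes did not pass, and the median of the 5 was 0.36.

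Of 10 LXR targets 6 were tested, with 0 higher, 2 lower and a median of -0.06. Smpdl3a, a phosphodiesterase gene induced by LXRs in human macrophages, had 1179.35, 1191.75 and 1101.5 in TG pools and 2066.35, 2075.15 and 1886.1 in WT pools, with -0.65 ± 0.08 (SE, limma, adjusted p = 0.00111). Lpcat3, a phospholipid-remodelling enzyme gene, was lower by less, with -0.25 ± 0.07 and 1 of 2 probes passing (SE, limma, adjusted p = 0.0324). Smpdl3a passed under all 20 other settings and Lpcat3 under 7.

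Of 22 PPAR targets 16 were tested, 1 was higher, 2 were lower and 13 did not pass, with a median of -0.09. Fabp3, the muscle fatty acid binding protein, had 23017.95, 21416.8 and 19581.9 in TG pools and 24715.0, 26397.95 and 25960.75 in WT pools, with -0.34 ± 0.07 (SE, limma, adjusted p = 0.0139). The carnitine carrier gene Slc25a20 gave -0.39 ± 0.11 (adjusted p = 0.0375, limma) with 1 of 2 probes passing, and the mitochondrial carrier gene Ucp3 gave 0.36 ± 0.11 (adjusted p = 0.0436, limma). Fabp3 passed under 16, Slc25a20 under 11 and Ucp3 under 6 of the 20 other settings. The vitamin D list had 0 tested genes of 6.

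For the glucocorticoid receptor, seen on 4 of 12 arrays, the list of targets and chaperones had 10 tested genes of 11, with 1 higher, 2 lower and a median of -0.22. Per1, a clock gene that glucocorticoids induce, had 710.95, 1008.1 and 792.0 in TG pools and 1630.65, 1809.1 and 1402.45 in WT pools, with -0.78 ± 0.14 and 2 of 3 probes passing (SE, limma, adjusted p = 0.00646). Klf15, a glucocorticoid-induced regulator of amino acid use, was lower, with -0.28 ± 0.08 (adjusted p = 0.0359, limma). Hsd11b1, the gene of the enzyme that regenerates active glucocorticoid, was higher by 0.40 ± 0.12 on the log2 scale (adjusted p = 0.0395, limma). Per1 passed under 19 of 20 other settings, Klf15 under 12 and Hsd11b1 under 8.

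The 13 genes reported elsewhere as NR4A1 targets in muscle had 12 tested members, 4 higher, 1 lower and 7 that did not pass, with a median of 0.14. Fbp2, the muscle fructose bisphosphatase, had 14116.45, 13377.2 and 13243.4 in TG pools and 2723.75, 3655.45 and 3122.35 in WT pools. Its difference was 2.14 ± 0.11 (SE, limma, adjusted p = 2.2e-05). Prkag3, a regulatory subunit of AMP-activated kinase in muscle, was lower on 2 of 2 probes, with 291.25, 249.8 and 189.8 in TG pools and 459.1, 700.6 and 599.1 in WT pools and -0.97 ± 0.20 (SE, limma, adjusted p = 0.0110). Both Ucp3 and Slc2a4, given above, are on this list too.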

How the data were processed

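RNA of 3 TG and 3 WT pools of 2 mice each was measured on 12 single-colour Illumina arrays. The deposited signals are intensity values per probe, called non-normalized per the file headers, yet they had been background-subtracted and scaled before deposit, since part of each array is below 0 and all arrays share 1 mean. The deposited detection score is a fraction headed as a detection p-value per the file headers; it rose with the signal and was read as 1 minus that p. A value table on the log2 scale, also deposited by the authors, was rebuilt here to within 0.00109 from signals floored at 1, minus the 75th percentile of the array, minus the probe's median, and was used as an alternative. Scanner software and tools are not given in the sources used here.

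Normexp (offset 50), quantile normalisation and log2 were followed by limma 3.58.1 (lmFit and eBayes, two-sided, R 4.3.3) on pool means, since neqc was planned only for raw signals. Normexp on subtracted values compresses differences of dim probes. The 3 pools per genotype limit the precision. The platform annotation named 34885 probes with 1 symbol and 18 with several, which stayed unnamed. Updating symbols changed 0. All probes of every receptor were counted, and values are given for those called, those seen in both genotypes and the NR4A receptors. Of each list up to 3 genes with the smallest p are named, by their brightest tested probe. Members and lists were chosen with earlier results of these data known. The fit was tested on simulated data.

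The alternatives were other background corrections, normalisations and detection filters, the authors' table, each chip alone, chip and pool as blocks, the pool number as a replicate block, each pool left out, and pools WT1 and TG3 reduced or left out. For TG and WT pools that share a number, the correlations of their deviations were -0.417, 0.342 and -0.119. With 3 pools per genotype these cannot settle whether the numbers pair the samples, and the main fit did not pair them.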

Additional observations from a re-analysis of the deposited data

How the results depend on the processing

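Of 20 other settings, chip 2 alone gave 2 receptor probes and 1454 probes in all past the threshold, against 6 and 4059. The 2 receptor probes were those of Esr2, which passed in all 20 settings, while the size of their differences (1.96 to 7.15 for ILMN_1236030 and 0.76 to 4.42 for ILMN_3115826) depends on the floor or offset of the setting, since every WT array was below detection. Most of the settings kept the detection filter that both probes met only through their TG arrays. Without that filter, in the limma fit on all 45281 probes, their adjusted p was 2.2e-06 and 0.000106. Leaving out each pool in turn gave 3 to 7 receptor probes and 2060 to 4216 probes in all. The lowest receptor count was without WT3. The count of all probes was 2586 without WT1, 2060 without WT2 and 2581 without WT3. The fit with the pool number as a replicate block gave 5 receptor probes (Pparg was lost) and 3103 probes in all, and not every pool correlated best with its own number. Scaling to the 75th percentile made 33.5% of all calls higher and cyclic loess 51.1%, against 43.6% with quantile normalisation. Among values of called receptor probes under another setting, 104 stayed past the threshold in the same direction, 16 fell short of it and 0 reversed. Among values of called genes of the lists, limited to the up to 3 of each list with the smallest p, 404 stayed and 156 fell short. Nr6a1 passed in 19 of 20 settings and Rxrb ILMN_2547313 in 17.

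No reversal touched a probe that passed. Cyclic loess turned Ppard to 0.00013 and Esr1 to 0.0085. Scaling to the 75th percentile turned Nr1h3 ILMN_2663374 to -0.0055 and Esrra ILMN_2766521 to -0.094, and the authors' table turned the same Esrra probe to -0.085. Chip 1 alone turned Nr1h3 to -0.011 and Nr2f2 to 0.055, and chip 2 alone turned Thra to 0.042 and Rarb ILMN_2886828 to -0.030. With WT1 from chip 1 only and without TG3, Ppard was 0.029. With single pools left out, Ppard ranged from -0.096 to 0.014, Thra from -0.11 to 0.0032, Esrra from -0.052 to 0.078 and Esr1 from -0.11 to 0.021. The cause was not tested. Thra had no value at a detection p below 0.01. Signal near background limits what can be said of the receptors detected on few arrays.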

Other observations

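Genes beside the 2 receptors with the largest increases were read after their values were seen, by their place in the RefSeq gene order. Of the 10 protein-coding genes nearest to Esr2, 5 on each side, 6 were tested and 0 were called by limma, with differences between -0.25 (Mthfd1) and 0.14 (Syne2). Next to Nr6a1 lies Nr5a1, steroidogenic factor 1, which was detected on 0 TG arrays and, on each of its 2 probes, on 1 WT array. Of the 10 genes nearest to Nr6a1, 5 on each side, 6 were tested and 0 were called by limma on their brightest tested probe, and 1 of 2 probes of Arpc5l, an actin-nucleation subunit gene, was called higher. Over all 9131 genes read in this way 28.0% were called, and the 6 genes beside either receptor are too few to compare with that share.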
